A study of Drosophila melanogaster with 8 samples.

Results

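The JAK/STAT pathway genes described here are 9 genes chosen by name for their place in the pathway: the ligands upd1, upd2 and upd3, the receptor dome, the receptor-like inhibitor et, the kinase hop, the transcription factor Stat92E, and the inhibitors Socs36E and Ptp61F. They were found by FlyBase identifier among 17445 counted features, which are the gene identifiers of the deposited count tables. All 9 were present, 6 had at least 1 read, and 3 (Stat92E, dome and et) had enough reads to pass the expression filter, as did 2589 features in all. RNA-seq was done on total RNA from whole Drosophila melanogaster larvae in the middle of the second instar, 25 larvae to a sample, raised for 60 hours at 25 °C on molasses agar with yeast paste. The Ldh mutants (w[1118]; Ldh[16/17], 4 libraries, numbered 1, 2, 3 and 6) carried the mutant alleles 16 and 17 of Ldh, which encodes lactate dehydrogenase. The controls (w[1118]; Ldh[precise], 4 libraries, numbered 1, 2, 5 and 6) carried a precise excision at Ldh, and both groups carried the white allele w[1118].

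In the fly, the secreted Unpaired proteins bind Domeless at the cell surface, the kinase Hopscotch bound to the receptor then phosphorylates Stat92E, and phosphorylated Stat92E enters the nucleus and turns on target genes. The same signal turns on Socs36E, which acts back on the receptor and kinase as a brake. In larvae the pathway is known for its roles in blood cells, in muscle and fat body during immune responses, and in the growth of imaginal discs. Because the kinase and the transcription factor are switched by phosphorylation, RNA levels of the pathway's components are not a measure of its activity. In RNA from whole larvae, fewer cells of a type and less RNA per cell cannot be told apart.

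Libraries held 371700 to 560865 reads assigned to a feature, which were 1.24% to 1.62% of the lines counted. The exact intervals of read ratios below cover counting error only. Intervals of log2 fold changes come from the edgeR fit, which includes the spread among libraries. Ldh itself had no reads in any of the 4 Ldh mutant libraries, against 4, 3, 5 and 1 reads in control libraries 1, 2, 5 and 6, and the groups did not overlap (exact two-sided permutation test, p = 0.0286, the smallest that 4 against 4 libraries can give). Reads lay mostly in features with an exon opposite an exon on the other strand: these were 26.1% of placed features and held 94.6% of reads. Whether the counting used strand is not given in the sources used here, so reads under a gene's identifier cannot be told apart from RNA of its other strand. Lines ambiguous between features were 0.0255% to 0.0350% of lines. Protein-coding features with no exon on the other strand had a median of 0.25 reads per library. Whether the deposited counts credit reads to the opposite strand was not tested. Ldh mutant library 3 stood apart: its chi-square per degree of freedom against the other mutants was 7.01 to 10.5, against 1.63 to 6.35 for all other pairs within a group. Nothing in the labels says that samples came from separate cultures, so the p-values cover the spread among the 8 samples, and this spread may be technical.

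None of the 3 tested pathway genes was called as changed in Ldh mutants. Stat92E was the one member near the threshold, with about 1.91 times the control level in the edgeR fit, and the log2 fold changes of dome and et were below 0 with intervals that spanned it. With edgeR's quasi-likelihood test and Benjamini-Hochberg adjustment over all features, 0 of 3 members passed an adjusted p under 0.05, beside 82 of 2589 features (3.17%), of which 40 were higher in Ldh mutants (1.54%). At an unadjusted p under 0.05, 1 of 3 members passed (Stat92E), beside 15.4% of all features. DESeq2 called 1 member (Stat92E), beside 2.49% of the features it tested, and limma-voom called 0. In 0 of 3 members were the groups free of overlap in CPM, the counts divided by the scaled library total, beside 9.54% of all features. Without Ldh mutant library 3, edgeR called 164 features and still 0 members. Over all tested features the median log2 fold change was 0.01.

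Stat92E encodes the only STAT protein of the fly and was the most counted member, with 795 of the 1136 reads of all 9 genes. It lies on chromosome arm 3R, bases 20535323 to 20552311 on the minus strand (BDGP6), and has 11 annotated transcripts. None of its 5210 exon bases faces an exon on the other strand. Among the 9939 protein-coding features of that kind, Stat92E ranked 20 from the highest by mean reads. Its mean was 99.4 reads per library, beside a median of 0.25. Whether these reads are Stat92E mRNA or RNA of the other strand was not tested. Ldh mutant libraries 1, 2, 3 and 6 held 88, 92, 198 and 147 Stat92E reads, against 44, 51, 113 and 62 in control libraries 1, 2, 5 and 6. Scaled to library size by the TMM method of edgeR, these reads were 219, 191, 428 and 336 CPM in Ldh mutants, against 114, 124, 203 and 168 CPM in controls. Mutant libraries 3 and 6 lay above every control, mutant library 1 did so narrowly, and mutant library 2 fell below control library 5, so the groups overlapped.

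Stat92E averaged 294 ± 109 CPM in Ldh mutants and 152 ± 40.8 CPM in controls (SD, n = 4 each). Its log2 fold change, Ldh mutant over control, was 0.93 (SE 0.25, 95% interval 0.40 to 1.47), with an unadjusted p of 0.00207 and an adjusted p of 0.0589 by edgeR. The exact two-sided permutation test over the 8 libraries gave p = 0.0571. By size, 3.21% of all tested features had a log2 fold change at least as far from 0, and 91 features had a p at least as small. Replicates of a group differed by more than read sampling, with a chi-square per degree of freedom of 17.0 among Ldh mutants and 5.51 among controls. Stat92E thus did not pass the planned threshold, and its call changed with the settings: it passed with DESeq2 (0.94, adjusted p = 0.0212), without an expression filter (0.91, adjusted p = 4.62e-06) and with a filter of 1 CPM in 4 libraries (0.91, adjusted p = 0.0140). It also passed without Ldh mutant library 1 (1.06, edgeR adjusted p = 0.0402) or library 2 (1.10, edgeR adjusted p = 0.0235), and in libraries 1, 2 and 6 alone. Without library 3 it did not pass (0.68, edgeR adjusted p = 0.0684), nor without library 6 (0.87, edgeR adjusted p = 0.160). It also failed with any control library left out (edgeR adjusted p 0.0709 to 0.199), with limma-voom (adjusted p = 0.0802) and with robust estimation (edgeR adjusted p = 0.149). Other scalings gave edgeR adjusted p 0.0607 to 0.0660, and both strands added gave 0.0874. In each of the 19 other settings run, Stat92E was higher in Ldh mutants.

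**Figure D1:**
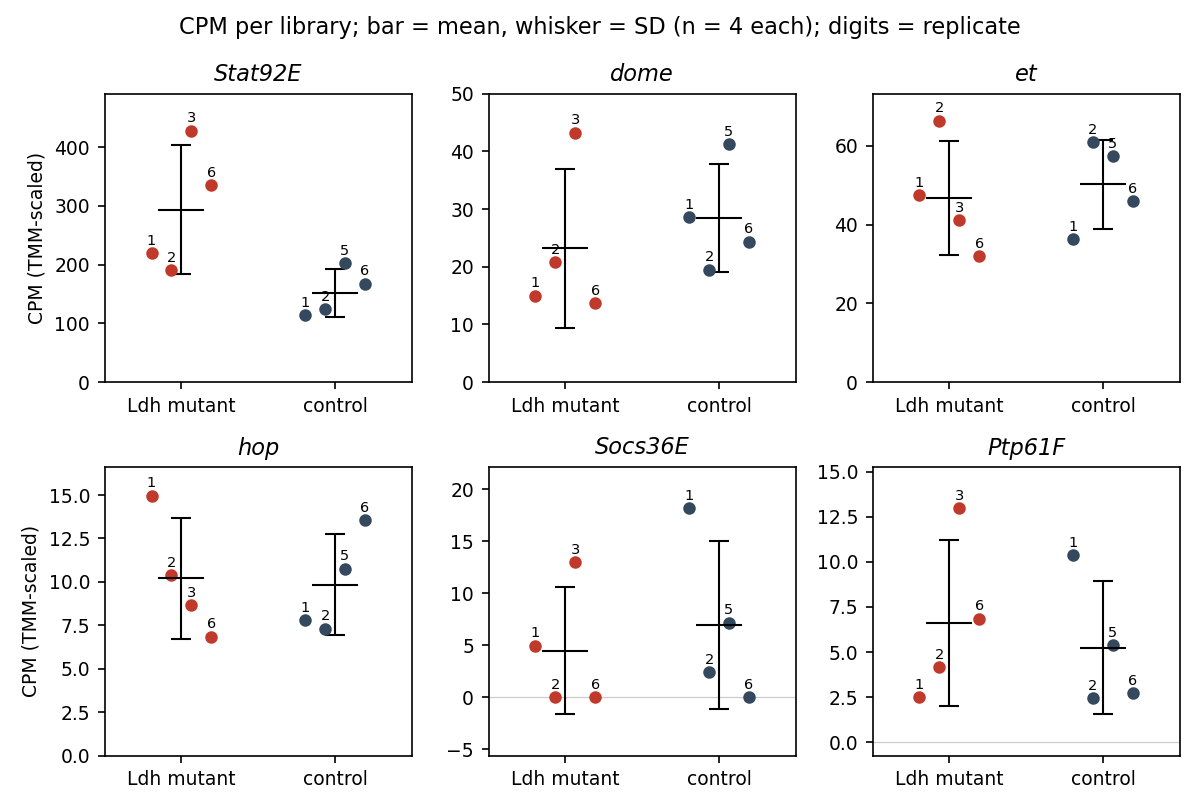
TMM-scaled CPM of the 6 members with reads, 1 panel a gene with its own axis. Each point is a library with its replicate number, Ldh mutants left of controls, the bar is the mean and the whisker the SD (n = 4 each). The groups overlap in every panel, and Stat92E has the widest gap between means (294 in Ldh mutants and 152 in controls).

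**Figure D2:**
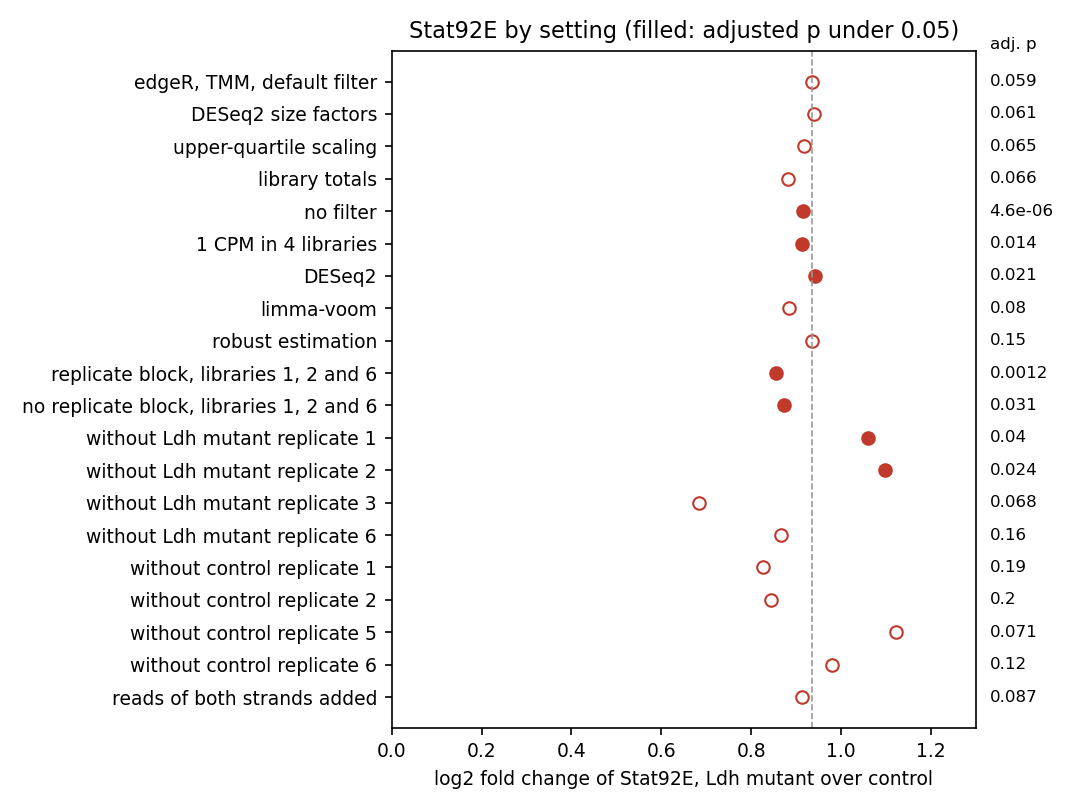
Log2 fold change of Stat92E, Ldh mutant over control, under each setting, with the adjusted p at the right. Filled points passed an adjusted p under 0.05. All points lie between 0.68 and 1.12, and the dashed line marks the planned fit (0.93).

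The genes beside Stat92E had few reads under their own identifiers, and whether RNA of either was counted under Stat92E was not tested. MtnD, a metallothionein gene on the other strand that ends 21 bases beyond the 3′ end of Stat92E, had 1, 3, 2 and 3 reads in Ldh mutants, against 2, 1, 2 and 0 in controls. DPCoAC, upstream on the same strand at 73 bases, had 2 reads over all 8 libraries. Both were named after their values were seen. Scaled by library totals, marker genes fixed as lists for other cell types moved with the groups in 2 of 6 lists. The 6 hemocyte (blood cell) markers summed to 136 to 167 CPM (of library totals, as for the other marker sums) in Ldh mutants, against 201 to 239 in controls, with eater at 0 in every library. The 4 neuronal markers summed to 1776 to 2014 CPM in Ldh mutants, against 2047 to 2491 in controls. With that scaling the groups did not overlap in either sum, and both sums were lower in Ldh mutants. The neuronal gap was narrow, from 2014 CPM in mutant library 2 to 2047 CPM in control library 5. With the TMM scaling used for the members, these sums would change order and the groups would overlap. Among all tested features taken singly, 9.54% did not overlap in TMM-scaled CPM, a scaling not used for the sums. A sum can rest on a single abundant marker, and the markers were not compared singly. The part of these sums in the Stat92E values was not tested. The 4 muscle markers summed to 1331 to 1670 CPM in Ldh mutants, against 1412 to 1799 in controls, and fat body markers to 0 to 14.0 in Ldh mutants, against 0 to 7.18 in controls, with Fbp1 at 0 throughout. The fat body sums were at most 7 reads in an Ldh mutant library and 3 in a control library, too few to compare fat body content. Midgut markers (4.37 to 28.0 in Ldh mutants, 4.97 to 18.8 in controls) and cuticle markers (10.1 to 25.8 in Ldh mutants, 9.95 to 23.2 in controls) overlapped as well.

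The 3 ligands had no reads. upd1, upd2 and upd3 encode secreted cytokines: upd1 patterns embryonic and disc tissue, upd2 is released by fat body, and upd3 is induced by infection and damage in gut and blood cells. They lie together on the X chromosome within 68.6 kb, upd2 at bases 18240654 to 18243284 (minus strand), upd3 at 18277233 to 18284596 (plus strand) and upd1 at 18305354 to 18309291 (minus strand), and none has an exon on the other strand. Each had 0 reads among 1879530 assigned reads of the Ldh mutants and 0 among 1752216 of the controls. A count of 0 allows up to 3 reads credited to an identifier over a group, which is 1.60 CPM in Ldh mutants and 1.71 in controls. With the strand setting not given, these are limits on reads as counted and not on ligand RNA. Per kb of exon the limits were 0.511 in Ldh mutants and 0.548 in controls for upd1, 0.806 in Ldh mutants and 0.865 in controls for upd2, and 0.719 in Ldh mutants and 0.771 in controls for upd3. No difference between groups was therefore detectable in these counts for any ligand. Among the 9939 protein-coding features without an exon on the other strand, 34.0% had no reads, and the median was 0.25 reads per library.

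The receptor gene dome and the receptor-like gene et are neighbours on the X chromosome, 169 bases apart on the minus strand, with et at bases 19672312 to 19675891 and dome at 19676061 to 19683518. Domeless is the signalling receptor, while Et resembles it outside the cell, lacks the part that signals, and lowers pathway output. dome had 6, 10, 20 and 6 reads in Ldh mutant libraries 1, 2, 3 and 6, against 11, 8, 23 and 9 in control libraries 1, 2, 5 and 6. Libraries 3 of the mutants and 5 of the controls were the high ones, and the groups overlapped. The means were 23.2 ± 13.7 CPM in Ldh mutants and 28.4 ± 9.30 CPM in controls (SD, n = 4 each), and the log2 fold change came to -0.31 (SE 0.38, 95% interval -1.13 to 0.50, edgeR adjusted p = 0.792). Without Ldh mutant library 3 the log2 fold change of dome was -0.81 (edgeR adjusted p = 0.226).

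The et counts were 19, 32, 19 and 14 reads in Ldh mutants, against 14, 25, 32 and 17 in controls, and the groups overlapped over most of their range. They averaged 46.7 ± 14.6 CPM in Ldh mutants and 50.2 ± 11.2 CPM in controls (SD, n = 4 each). The log2 fold change of et was -0.11 (SE 0.26, 95% interval -0.67 to 0.45, edgeR adjusted p = 0.919), and it was 0.030 without Ldh mutant library 6. At its 3′ end et shares 42 exon bases with Zw, the glucose-6-phosphate dehydrogenase gene on the other strand. Zw, named after its values were seen, had 27, 32, 28 and 36 reads in Ldh mutants, against 25, 19, 31 and 21 in controls, and its log2 fold change came to 0.31 (SE 0.19, edgeR adjusted p = 0.518).

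hop, which encodes the only JAK kinase of the fly, was counted too rarely to pass the filter. It lies on the X chromosome at bases 11360930 to 11368098 on the minus strand. It had 6, 5, 4 and 3 reads in Ldh mutants, against 3, 3, 6 and 5 in controls, and both groups covered the same range. Over each group these were 18 reads in Ldh mutants and 17 in controls. Scaled by library totals the ratio of Ldh mutant to control was 0.987 (exact 95% interval 0.480 to 2.04; exact permutation p = 0.886). Without Ldh mutant library 3 or 6, or control library 5 or 6, the ratio was 1.04 to 1.10.

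Socs36E encodes a SOCS protein that damps signalling at the receptor and is itself a widely used read-out of the pathway. It lies on 2L at bases 18138675 to 18152417 on the minus strand. It had 2, 0, 6 and 0 reads in Ldh mutants, against 7, 1, 4 and 0 in controls. Libraries at 0 occurred in both groups, and most reads came from mutant library 3 and control libraries 1 and 5. The ratio of Ldh mutant to control was 0.622 (8 reads in Ldh mutants and 12 in controls, exact 95% interval 0.220 to 1.65, exact permutation p = 0.657). The ratio was 1.15 without control library 1 and 0.212 without Ldh mutant library 3, so its direction and size rested on single libraries.

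Ptp61F encodes a tyrosine phosphatase that removes phosphate from Hopscotch and Stat92E. It lies on 3L at bases 1342493 to 1475257 on the minus strand, a span that holds 19 other counted genes, 15 of them on the other strand, and 2 of the 19 had any reads. Ptp61F had 1, 2, 6 and 3 reads in Ldh mutants, against 4, 1, 3 and 1 in controls. The groups overlapped, and mutant library 3 held 6 of the 12 mutant reads. The ratio of Ldh mutant to control was 1.24 (12 reads in Ldh mutants and 9 in controls, exact 95% interval 0.481 to 3.34, exact permutation p = 0.657), and it was 0.847 without that library.

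**Figure D3:**
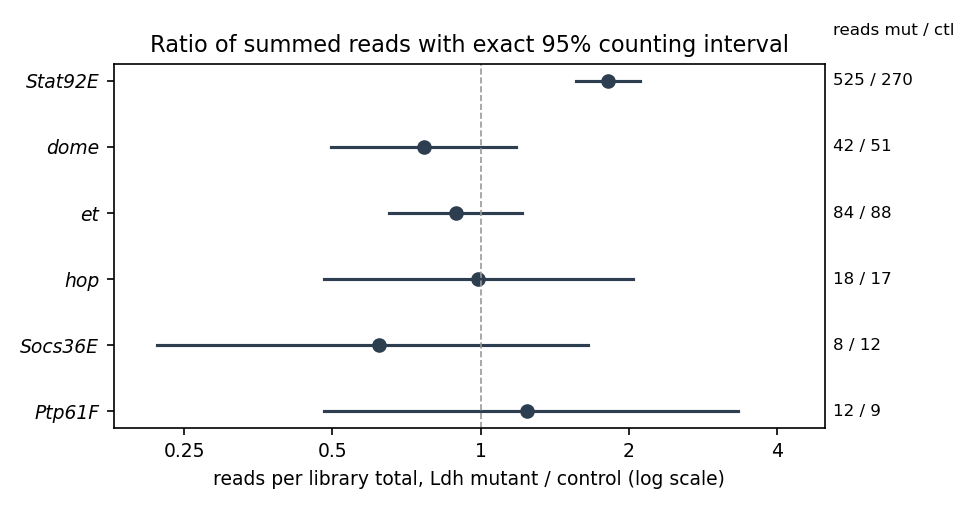
Ratio of summed reads, Ldh mutant over control, each divided by its group's library totals, for the 6 members with reads, on a log axis. Lines are exact 95% intervals for counting error only and the numbers at the right are the reads in Ldh mutants and controls. The interval of Stat92E (1.56 to 2.11) lies above 1, but its libraries differed by more than counting error, and the other 5 intervals span 1.

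Set per kb of exon, Stat92E, et and dome were the 3 highest members in both groups, in that order by mean. Stat92E stood at 56.4 ± 21.0 CPM per kb in Ldh mutants and 29.2 ± 7.83 in controls, et at 19.4 ± 6.04 in Ldh mutants and 20.8 ± 4.64 in controls, and dome at 4.75 ± 2.82 in Ldh mutants and 5.83 ± 1.91 in controls (SD, n = 4 each). Below them, hop stood at 2.02 ± 0.688 CPM per kb in Ldh mutants and 1.95 ± 0.572 in controls, Socs36E at 1.28 ± 1.75 in Ldh mutants and 1.98 ± 2.30 in controls, and Ptp61F at 1.09 ± 0.759 in Ldh mutants and 0.861 ± 0.608 in controls. In Ldh mutants the libraries of Stat92E did not overlap those of et, the next gene down, whereas in controls they did (21.9 to 38.9 CPM per kb for Stat92E and 15.1 to 25.3 for et). The libraries of et lay above those of dome in both groups. From dome downward each gene overlapped the next in both groups, and Socs36E and hop changed places between the groups. The libraries of dome nevertheless lay above those of Ptp61F in both groups (Ptp61F reached 2.14 CPM per kb in Ldh mutants and 1.71 in controls). In controls they also lay above those of hop, which reached 2.68 CPM per kb.

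**Figure D4:**
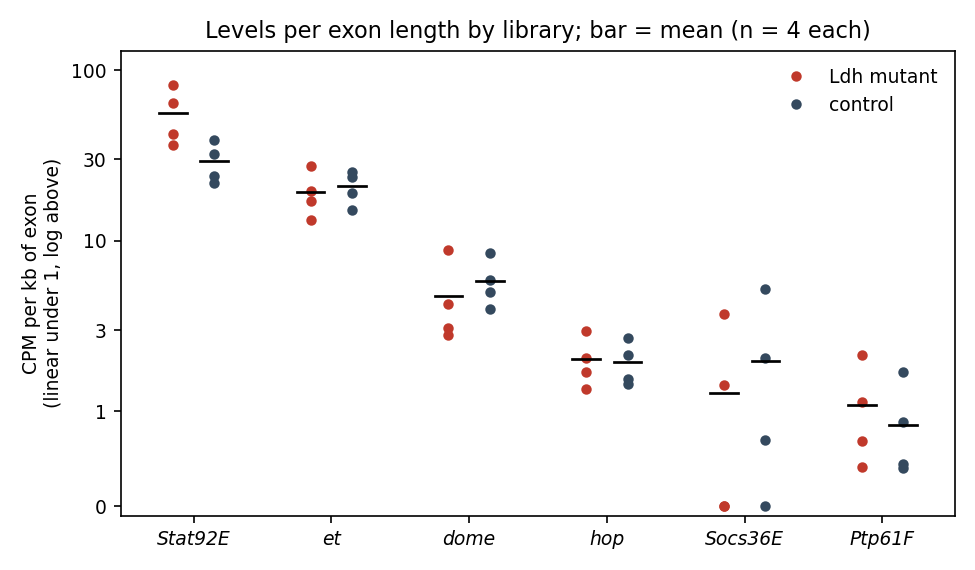
CPM per kb of exon in each library for the 6 members with reads, Ldh mutants left of controls, with a bar at the mean (n = 4 each). The axis is linear under 1 and logarithmic above it. Stat92E, et and dome stand in that order by mean in both groups, and hop, Socs36E and Ptp61F lie close together at a few CPM per kb or less.

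Other regulators of the pathway were read from a list of 13 genes, of which 12 matched a counted feature, 11 had reads and 3 passed the filter. None of the 3 was called, 1 had a positive log2 fold change and their median was -0.03, beside 0.01 over all tested features. TSG101, an endosomal sorting gene involved in the breakdown of receptors, had 592 reads in Ldh mutants and 581 in controls (log2 fold change -0.03, SE 0.14, edgeR adjusted p = 0.968), with 18 of its 1757 exon bases opposite an exon on the other strand. BRWD3, a bromodomain gene found in screens for pathway regulators, had 261 reads in Ldh mutants and 228 in controls (0.17, SE 0.19, edgeR adjusted p = 0.763), with 412 of its 7244 exon bases opposite such exons. Socs44A, a SOCS gene related to Socs36E, had 84 reads in each group (-0.04, SE 0.22, edgeR adjusted p = 0.968), with 123 of its 1840 exon bases opposite such exons.

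Target genes of the pathway were hardly counted. Of a list of 14, 8 had reads and none passed the filter, with 25 reads in Ldh mutants and 17 in controls over the whole list. The 7 Turandot genes, which encode secreted stress peptides, had 3 reads in Ldh mutants and 0 in controls. The reads came from TotA (1) and TotM (2), which were named after their values were seen. The targets with the most reads were Tep2, a thioester protein gene of the immune system, with 0, 2, 2 and 4 reads in Ldh mutants, against 2, 0, 2 and 0 in controls, chinmo, a transcription factor gene, with 5 reads in each group, and Tep4, with 3 reads in Ldh mutants and 4 in controls. These counts allowed no statement on a change of targets in either direction.

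The features whose profile over the 8 libraries was most like that of Stat92E were baz, Poxm and asRNA:CR43471. Likeness was the root mean square difference of log2 CPM after each profile was centred on its own mean, and it was 0.298 for baz, 0.303 for Poxm and 0.307 for asRNA:CR43471, beside a median of 0.665 over all tested features. baz, a cell polarity gene, had 3330, 2735, 4260 and 2850 CPM in Ldh mutants, against 1660, 1751, 1988 and 1947 CPM in controls. Poxm, a paired-box transcription factor gene, had 57.4, 76.8, 99.5 and 86.9 CPM in Ldh mutants, against 44.2, 51.2, 66.3 and 59.6 CPM in controls, and 181 of its exon bases face the copper transporter gene Ctr1B. asRNA:CR43471, an antisense RNA opposite CG34316, had 706, 643, 1142 and 1045 CPM in Ldh mutants, against 452, 488, 428 and 393 CPM in controls. All 3 profiles had mutant library 3 as their highest value, as Stat92E did. They were picked for likeness to Stat92E over these same 8 libraries, so the shared highest library is not separate evidence.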

How the data were processed

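Each deposited file holds the raw counts of 1 library by FlyBase identifier, which the authors had not normalized. According to the submitters' processing notes the tools included HTSeq 0.6.1p1, TopHat2 2.0.13, Bowtie2 2.2.4 and Trimmomatic 0.32, with CASAVA and DESeq2. Of build, annotation, kit and strand setting, each is not given in the sources used here. Groups follow the labels. The paper describes other numbers of replicates and larvae, heterozygous controls and transcript quantification, so its methods may not cover these libraries. The 5 summary lines of each file, which name no gene, were left out of totals: reads in no feature were 65.1% to 77.2% of lines and alignments that were not unique 21.2% to 33.7%.

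The quasi-likelihood test of edgeR 4.0.16 was run in R 4.3.3 (TMM, default filter, no covariates). Benjamini-Hochberg adjustment ran over the 2589 features tested, and calls needed an adjusted p under 0.05. The pipeline was tested on simulated data. Members below the filter were compared by the ratio of summed reads with an exact 95% interval and by permuting log2(CPM + 1) over all 70 assignments of libraries (exact, two-sided). The marker sums were scaled by library totals alone. Positions came from the BDGP6 annotation, release 115, which may not be the one counted with, and 17151 features were placed.

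Members and lists were chosen with earlier results of these data known. The rule for named genes took the 9 members, counted genes sharing at least 50 exon bases with a member on the other strand (there were none), Ldh, up to 3 members of each list with the most reads, and the 3 features with the profile nearest to that of Stat92E. Zw, MtnD, DPCoAC, TotA and TotM fall outside it and were named after their values were seen. Alternatives were other scalings and filters, DESeq2 1.42.0, limma-voom (limma 3.58.1), robust estimation, the replicate number as a block, each library left out, and reads added to or exchanged with the other strand. The planned test did not pair samples by shared number, and whether the numbers mark pairs was not settled.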

Additional observations from a re-analysis of the deposited data

How the results depend on the processing

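Of the settings run, 19 gave Stat92E a positive log2 fold change, from 0.68 to 1.12. It passed the threshold, and was the 1 member called, with no filter (0.91), 1 CPM in 4 libraries (0.91), DESeq2 (0.94) and in libraries 1, 2 and 6 alone, both with the replicate block (0.85) and without it (0.87). Leaving out each library in turn gave 0.68 to 1.12, adjusted p 0.0235 to 0.199 (edgeR) and 0 to 1 members called. Features called numbered 82 in the planned test, 184 with no filter, 138 with the replicate block, against 118 in the same 6 libraries without it, 48 with reads credited to the opposite strand, which gave no value for any member, and 57 to 164 with each library left out. The same-number correlations of deviations were -0.11, 0.02 and -0.02. The et fold change turned to 0.013 with the replicate block, to 0.026 without it in the same libraries, and ranged from -0.34 to 0.030 with each library left out. dome stayed negative in the 17 settings that gave it a value (-0.81 to -0.04). The hop ratio was 1.04 with TMM-scaled CPM and 0.851 to 1.10 with each library left out. The same ranges were 0.212 to 1.15 for Socs36E and 0.847 to 1.72 for Ptp61F. The causes of these changes were not tested. Few reads were assigned to hop, Socs36E and Ptp61F and none to the ligands, and the cause of this was not tested.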
